A study of Rattus norvegicus with 12 samples.

Results

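Skeletal muscle stores glucose as glycogen and burns it through glycolysis. The 8 genes described here encode enzymes of that route and the creatine kinase that works beside it: Pygm, Pfkm, Aldoa, Pgam2, Eno3, Pkm, Ldha and Ckm. They were chosen by mouse Ensembl gene identifier and made up 8 of the 56953 genes listed in each of 2 count tables. All 8 passed the filter on low counts, which kept 10450 genes.

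Glycogen phosphorylase cuts glucose units from glycogen, and glycolysis then splits the sugar to pyruvate, yielding ATP without oxygen. Fast-twitch fibres, which contract in short bursts, carry much of this enzyme set, whereas slow fibres rely more on mitochondria. Several of the genes encode the muscle form of an enzyme that other tissues make from a sister gene.

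The series profiled muscle of Long-Evans rats, labelled wild type, by bulk RNA-seq of tissue from the implant or operation site. The labels name 12 samples, 6 of back muscle and 6 of leg muscle, and each muscle has 3 samples given a magnetic fluid injection (MFIT) and 3 given no treatment or sham surgery (NT). Collection at 7 and 14 days is named for the series as a whole. No day is given for a sample, and age is not stated in the labels.

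The count tables, one per muscle, each hold 6 columns. Their names carry the muscle, a code (ST or WT) and a number from 1 to 3. The code ST occurs in no sample label, and WT occurs in all of them as the genotype. Neither code could be tied to MFIT or NT, and no source ties a column to 1 labelled sample, so ST and WT are used below only as names of columns, with 3 columns for each muscle and code. No direction of a treatment effect can be read from them. Each column was counted as 1 replicate of its muscle and code, and p-values measure the spread between these columns only. A difference between muscles cannot be told apart from one between collection days, should the days coincide with muscle.

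Gene counts per column ran from 3329994 to 7164682. Reads that did not map were 52.4% to 61.2% of all reads in a column, and reads that fell on more than 1 gene were 14.0 to 20.8 per 100 gene counts. The identifiers are those of mouse although the tissue is labelled as rat, so a gene's count may also depend on how well its rat reads matched the reference, and levels are compared within a gene only. Reads from near-identical copies of Aldoa, Ldha and Pkm may be missing from their counts, since multimapping reads (3.07% to 3.72% of reads) were kept apart. The lowest count of any of the 8 genes in any column was 1593, for Ldha. In bulk tissue, fewer muscle fibres in a sample and less RNA per fibre cannot be told apart.

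Column 1 of back ST stood apart from its group. It correlated with back ST columns 2 and 3 at r = 0.945 and 0.958 over the log CPM of the 10450 genes, and with the back WT columns at r = 0.979 to 0.982. It had 20.1 ambiguous reads per 100 gene counts, beside 20.1 to 20.8 in back WT and 15.2 and 14.0 in the other back ST columns. The share of reads that did not map was 52.4% in it and 61.0% and 58.8% in the others. The part of these read classes in the results was not tested. Whether its code is right is not known from the sources used here. The counts of calls and the back ST differences are given with and without it. It also enters the other comparisons through the shared spread. The column was singled out in these same data, so p-values without it, here and for single genes below, are descriptive only. Dixon's gap test over the 6 columns of a muscle flagged 0 values (largest gap 0.468 of the range, critical value 0.625). That test pools both codes, so it cannot judge a column within its code.

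**Figure D1:**
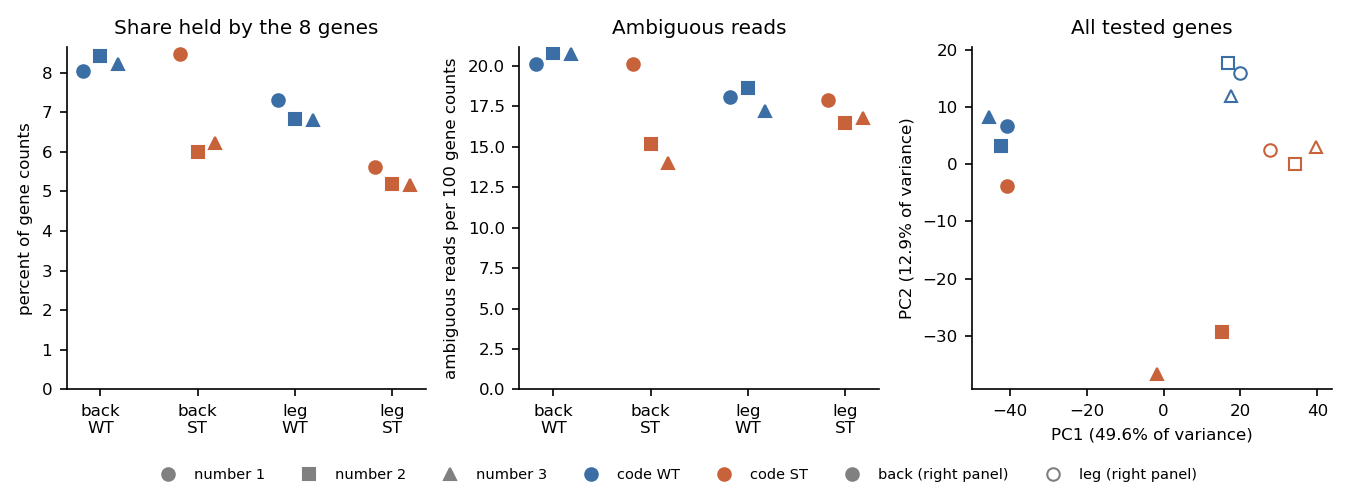
Left, percent of gene counts held by the 8 enzyme genes in each column; middle, ambiguous reads per 100 gene counts; right, the first 2 principal components of log CPM over all tested genes. Each point is 1 column, marker shape gives its number and colour its code; back ST column 1 lies with the back WT columns in all panels, at 8.48% of gene counts against 8.05% to 8.41% in back WT.

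The enzyme genes formed a large part of the muscle libraries and were most abundant in back WT columns. Together they held 8.23% ± 0.179 of gene counts in back WT (SD, n = 3), 6.98% ± 0.284 in leg WT and 5.33% ± 0.254 in leg ST. In back ST they held 8.48%, 5.99% and 6.23% in columns 1 to 3, a mean of 6.90% ± 1.37. CPM is gene counts set to a common library size, with that size scaled by the trimmed mean of M-values (TMM). For 8 of 8 genes the mean CPM was highest in back WT and lowest in leg ST of the 4 groups of columns. This order held also without back ST column 1, and the share of all genes with it is not given here. Pairs of the 8 genes correlated at r = 0.859 to 0.991 over the log2 CPM of the 12 columns. The 8 genes are therefore not separate findings.

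**Figure D2:**
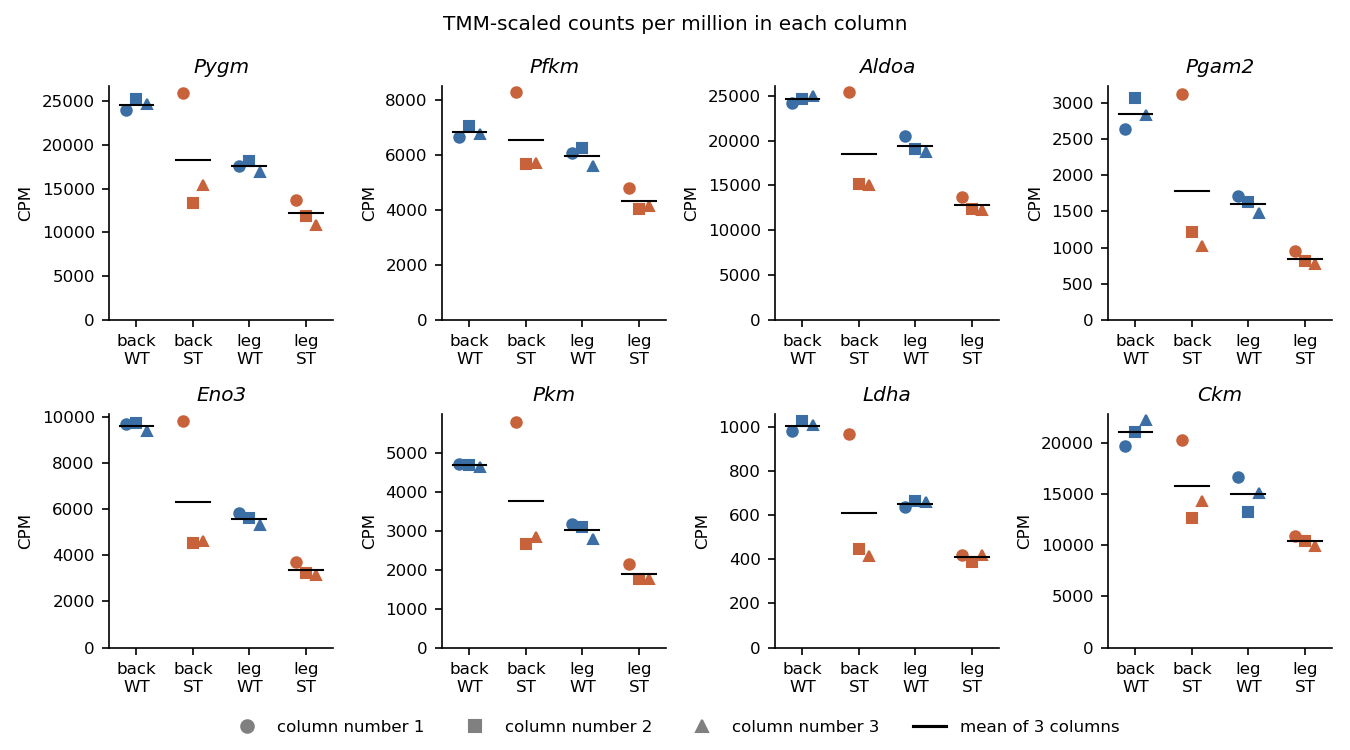
TMM-scaled CPM of each enzyme gene (vertical axes, linear from 0) in the 3 columns of each muscle and code; markers give the column number and black lines the mean of 3 columns. In back ST, column 1 lies near or above back WT, and columns 2 and 3 lie below it for all 8 genes.

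Leg muscle had lower levels than back muscle for all 8 genes among the WT columns, except that Pfkm turned to 0.04 above 0 without composition scaling, and 1 of 8, Eno3, passed the test. Among the ST columns all 8 genes were also lower in leg, and 5 of 8 passed the test: Pfkm, Pgam2, Eno3, Pkm and Ckm. An edgeR fit of the 6 ST columns alone called 0 of 8 (adjusted p from 0.118 to 0.330), where 2.29% of genes were called. DESeq2 called 6 of 8 and 7.16% of all genes, with Pygm and Aldoa added and Pgam2 lost (adjusted p = 0.0725). For the WT columns, an edgeR fit of those 6 columns alone called 7 of 8, where 22.4% of genes were called. With DESeq2 it was 4 of 8, and 12.5% of all genes. The main tests were contrasts of a single edgeR quasi-likelihood fit of all 12 columns, called at a Benjamini-Hochberg adjusted p below 0.05 over all genes tested. Of all genes, 13.9% were called in either direction between the muscles among WT columns (6.43% lower in leg) and 8.23% among ST columns (3.58% lower in leg). The median log2 fold change of the 8 genes, leg over back, was -0.56 in WT and -0.60 in ST columns, beside 0.0017 and -0.010 over all genes tested. With scaling by total gene counts alone the median of all genes was 0.19 to 0.23 in the 4 comparisons of columns. The share of calls that were higher went from 53.7% to 85.2% in WT columns and from 56.5% to 88.5% in ST columns. The median of the 8 genes, leg over back, was then -0.33 in WT and -0.35 in ST columns.

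The WT call of Eno3 was lost when any 1 of the 6 WT columns was left out. Without back ST column 1, which enters through the shared spread, 7 of 8 genes were called lower in leg WT (all but Pfkm, with an edgeR adjusted p of 0.130). Of all genes, 21.1% were then called in either direction (1130 of 10748 lower). Among ST columns the number called was still 5 without back ST column 1 (background 7.95%), but the median difference shrank to -0.38. It was 0 without leg ST column 2 (4.33% of all genes called) or column 3 (2.83%). It was 3 without leg ST column 1 (5.95%), 8 without back ST column 2 (12.4%) and 7 without back ST column 3 (7.26%).

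The fitted level in ST columns was below that in WT columns for all 8 genes in both muscles, with overlapping columns for 7 of 8 in back, except that Pfkm in back turned to 0.11 above 0 without composition scaling, and to 0.03 and 0.02 without back ST column 2 or 3. With edgeR on all 12 columns, 0 of 8 genes passed the test in back and 0 of 8 in leg. Of all genes, 3.78% were called in back (1.39% lower) and 0.0766% in leg (0.0287% lower). At an unadjusted p below 0.05 the numbers of the 8 were 6 in back and 8 in leg, beside 2394 (22.9%) and 1525 (14.6%) of the 10450 genes. DESeq2 called 1 of 8 in back, Ldha, and 7 in leg, all but Pgam2, where it called 5.82% and 0.785% of all genes. The median log2 fold change of the 8 genes, ST over WT, was -0.42 in back and -0.64 in leg, beside 0.011 and 0.0086 over all genes. Higher genes made up 63.3% of the calls in back and 62.5% in leg, or 85.3% and 90.5% when scaled by total gene counts alone.

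Without back ST column 1 the same fit called 7 of 8 genes lower in back ST, all but Pfkm, with a median of -0.77, and 8 of 8 lower in leg ST, with a median of -0.64 and adjusted p from 4.22e-05 to 0.00453. The share of all genes called in either direction was then 21.7% in back (1165 of 10748 genes lower) and 4.61% in leg (306 lower). A fit of the 6 leg columns alone also called 8 of 8 genes lower in leg ST. In that fit 7.08% of genes were called in either direction (419 of 9805 lower). A fit of the 6 back columns alone called 0 of 8, where 0.0211% were called. The median difference in leg was -0.64 in each of these fits that included leg, which share the same 6 leg columns and TMM scaling. Without composition scaling the median of the 8 genes, ST over WT, was -0.45 in leg and -0.26 in back. The common biological coefficient of variation of the fit, its estimate of the spread between columns of a group, was 0.145 with back ST column 1 and 0.103 without it. Leaving out a column chosen for its likeness to back WT widens the back difference and narrows this spread by that choice. The calls without it are therefore no independent support.

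The WT and ST columns did not overlap for any of the 8 genes in leg muscle, where 12.7% of all genes were lower in ST without overlap. In back muscle this held for 1 of 8, Ldha, and for 10.4% of all genes. Back ST column 1 decided this count: without it, a check added after seeing the data, the back columns did not overlap for 8 of 8 genes and 22.6% of all genes were lower in ST in this way. Leg and back WT columns did not overlap for 8 of 8 genes, and 18.2% of all genes were lower in leg WT in this way. Among ST columns it held for 6 of 8, with 11.9% of all genes lower; Pygm and Ldha overlapped. That count was also 6 without back ST column 1, with 18.7% of all genes lower.

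**Figure D3:**
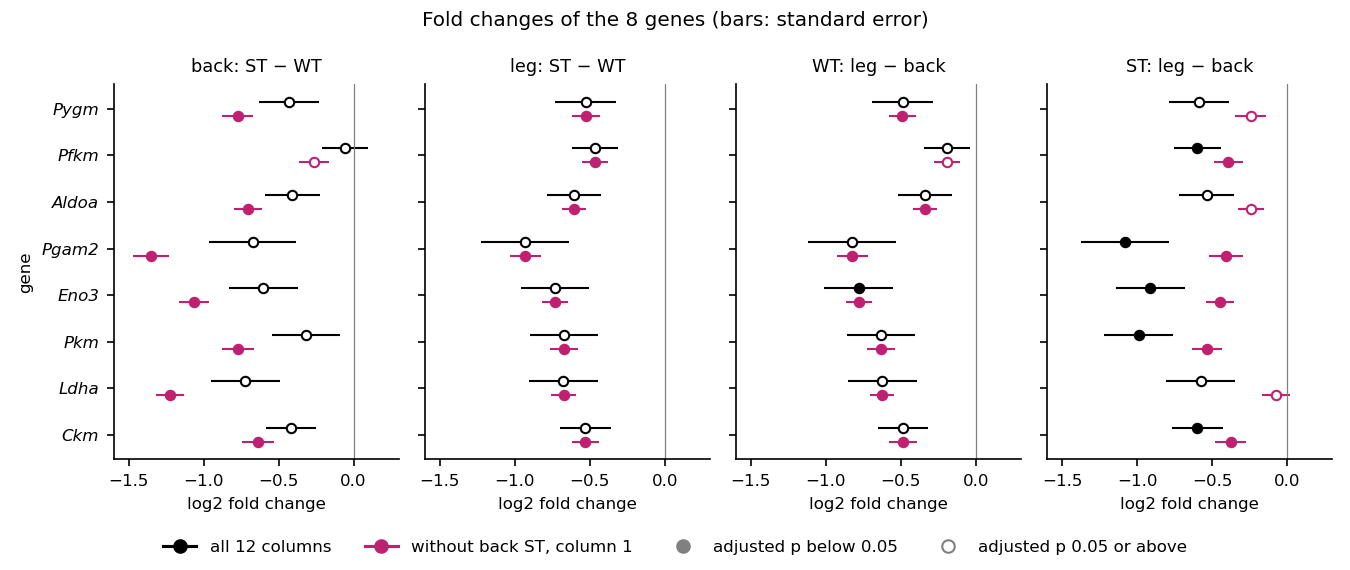
Log2 fold change (horizontal axes) of each enzyme gene in the 4 comparisons, with the standard error as bars; black is the fit of all 12 columns and magenta the fit without back ST column 1, and filled points have an adjusted p below 0.05. In the first panel 0 of 8 points are filled with the column and 7 of 8 without it.

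**Figure D4:**
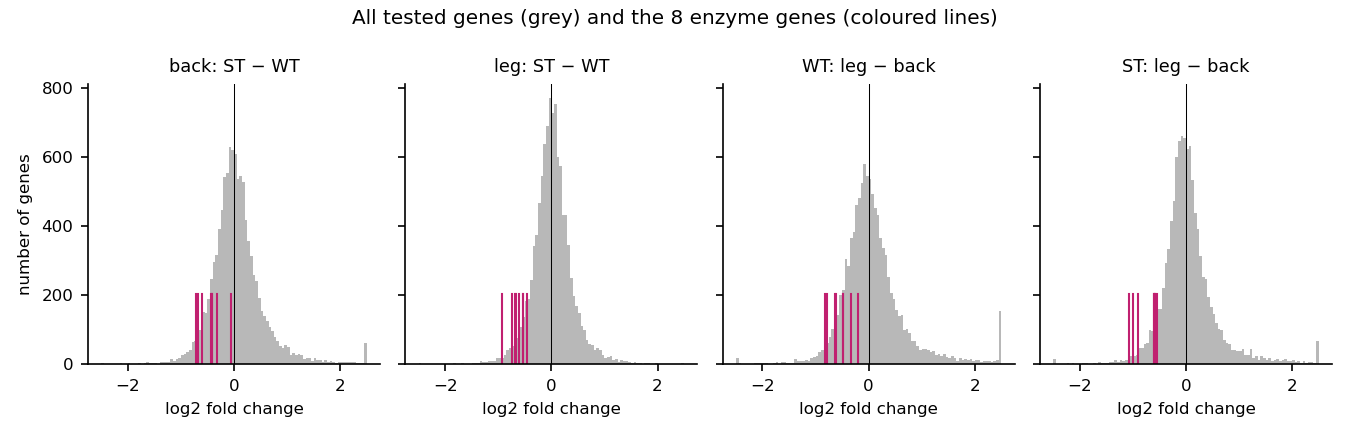
Histograms of the log2 fold change of the 10450 tested genes in each comparison, with values beyond the ends of the axis gathered in the outermost bars; coloured lines mark the 8 enzyme genes. With TMM scaling the lines lie to the left of 0 in all 4 panels (without composition scaling Pfkm crosses 0 in the back ST and the WT leg panels), with medians of -0.42, -0.64, -0.56 and -0.60 from left to right.

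Glycogen breakdown starts with Pygm (ENSMUSG00000032648.15), the muscle glycogen phosphorylase whose loss causes McArdle disease. Its CPM was 24006, 25195 and 24631 in back WT columns 1 to 3 and 25978, 13319 and 15462 in back ST. In leg it was 17637, 18127 and 16844 in WT and 13725, 11882 and 10878 in ST. Back ST column 1 was the highest of all 12, and the leg ST and leg WT columns did not overlap. The log2 fold change of ST over WT was -0.43 ± 0.20 in back (standard error; edgeR adjusted p = 0.213) and -0.53 ± 0.20 in leg (adjusted p = 0.252). The back difference became -0.77 ± 0.11 without column 1 of back ST (edgeR adjusted p = 2.45e-05). Leg over back was -0.49 ± 0.20 in WT columns (edgeR adjusted p = 0.117, or 7.26e-04 without back ST column 1). In ST columns it was -0.59 ± 0.20 (edgeR adjusted p = 0.0875), and -0.24 ± 0.10 without back ST column 1 (adjusted p = 0.170).

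Pfkm (ENSMUSG00000033065.15) encodes muscle phosphofructokinase, the main control step of glycolysis. It varied least of the 8 genes, with a ratio of 2.05 between the highest and the lowest of 12 columns. CPM was 6640, 7061 and 6767 in back WT and 8287, 5668 and 5690 in back ST. In leg it was 6063, 6257 and 5591 in WT and 4787, 4043 and 4154 in ST. Back ST column 1 exceeded every back WT column, and the other back ST columns lay below them. The back ST over WT difference was -0.06 ± 0.15 with all columns (edgeR adjusted p = 0.863) and -0.26 ± 0.10 without column 1 (adjusted p = 0.0613), so it passed in neither fit. In leg ST it was -0.46 ± 0.15 below WT (edgeR adjusted p = 0.200). Pfkm fell between back and leg among ST columns, by 0.60 on the log2 scale (edgeR adjusted p = 0.0263), and by 0.39 without back ST column 1 (adjusted p = 0.0153). Among WT columns the difference between muscles was -0.19 ± 0.15 (edgeR adjusted p = 0.445).

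Aldoa (ENSMUSG00000030695.17) encodes the aldolase that splits fructose bisphosphate. It had 24229, 24605 and 24950 CPM in back WT, and 25437, 15172 and 15019 in back ST. Leg values were 20505, 19037 and 18778 in WT and 13686, 12399 and 12265 in ST. The 3 back WT columns lay close together, with an SD of 1.47% of the mean, and back ST columns 2 and 3 lay below every leg WT column. ST over WT was -0.41 ± 0.18 in back with all columns and -0.60 ± 0.18 in leg, with edgeR adjusted p = 0.189 and 0.181. When back ST column 1 was left out, the back difference was -0.70 ± 0.09 (edgeR adjusted p = 1.21e-05). The leg over back difference in WT columns, -0.34 ± 0.18, did not pass (edgeR adjusted p = 0.233). In ST columns it was -0.54 ± 0.18 (edgeR adjusted p = 0.0822), and -0.24 ± 0.09 without back ST column 1 (adjusted p = 0.109).

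Pgam2 (ENSMUSG00000020475.4), the muscle phosphoglycerate mutase, varied most, with a ratio of 4.07 between its highest and lowest columns. Its promoter is shown for that reason, and that of Ckm because Ckm is a marker of differentiated muscle. They are rat sequences from RefSeq on the GRCr8 build, matched by symbol, 250 bases ending at the annotated start site, 5′ to 3′ on the gene's strand. Capitals mark CAGCTG, one form of the E-box bound by myogenic factors; it reads the same on both strands. Pgam2 lies at chr14:84897875-84898124 on the minus strand, and Ckm at chr1:88189211-88189460 on the plus strand.
Pgam2: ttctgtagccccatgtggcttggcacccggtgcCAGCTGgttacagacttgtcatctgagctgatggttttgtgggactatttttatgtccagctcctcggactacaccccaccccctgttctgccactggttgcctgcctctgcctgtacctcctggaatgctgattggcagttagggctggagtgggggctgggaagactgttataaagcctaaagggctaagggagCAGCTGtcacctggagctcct
Ckm: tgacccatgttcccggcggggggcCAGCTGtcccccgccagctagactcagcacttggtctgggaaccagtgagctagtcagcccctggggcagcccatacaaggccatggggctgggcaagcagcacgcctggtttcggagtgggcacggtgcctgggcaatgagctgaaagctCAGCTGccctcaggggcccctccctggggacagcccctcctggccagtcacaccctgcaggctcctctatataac

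CAGCTG occurred in 3 of the 10 windows of the 8 genes, those of Pygm, Pgam2 and Ckm, with 2 matches in each. Of 33465 rat promoter windows of the same length, 12% held it. A MEF2 motif was searched on either strand as YTAWWWWTAR (Y is C or T, W is A or T, R is A or G). It was found in 1 of the 10 windows of the 8 genes, a window of Aldoa, which has 3 annotated start sites. Of all windows, 2.96% held it. Looser matches to this motif were not counted. A match is a description of the letters and not a site of binding.

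The Pgam2 level was 2637, 3065 and 2834 CPM in back WT and 3119, 1210 and 1023 in back ST. In leg it was 1720, 1629 and 1472 in WT and 945, 816 and 767 in ST. Back ST columns 2 and 3 lay below every leg WT column and above every leg ST column. ST over WT was -0.67 ± 0.29 in back (edgeR adjusted p = 0.183) and -0.93 ± 0.29 in leg (adjusted p = 0.191). Leaving out back ST column 1 gave a back difference of -1.35 ± 0.12 (edgeR adjusted p = 1.38e-07) and a leg one of -0.93 ± 0.10 (adjusted p = 4.22e-05). Between muscles Pgam2 fell by 1.08 in ST columns (standard error 0.29, edgeR adjusted p = 0.0332), and by 0.41 without back ST column 1 (adjusted p = 0.0326). In WT columns leg over back was -0.82 ± 0.29 (edgeR adjusted p = 0.0733).

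Eno3 (ENSMUSG00000060600.16) encodes beta-enolase, the muscle enolase. Of the 8 genes only it was called between the muscles in both codes when all columns were fitted. The share of all genes called in both is not given here, and the threshold alone sets Eno3 apart. In WT columns Ckm, Pgam2 and Pkm had edgeR adjusted p = 0.0666, 0.0733 and 0.0758, and Pgam2 had a larger difference (-0.82). CPM of Eno3 was 9679, 9746 and 9385 in back WT and 5847, 5618 and 5296 in leg WT. It was 9810, 4544 and 4629 in back ST and 3721, 3244 and 3129 in leg ST. Back and leg WT columns were well separated, while the back ST columns fell on both sides of the leg WT columns. Leg over back was -0.78 ± 0.23 in WT columns (edgeR adjusted p = 0.0343) and -0.91 ± 0.23 in ST columns (adjusted p = 0.0230), or -0.45 ± 0.10 in ST columns without back column 1 (adjusted p = 0.00630). ST over WT was -0.60 ± 0.23 in back and -0.73 ± 0.23 in leg, with edgeR adjusted p = 0.131 and 0.190. The fit without back ST column 1 gave -1.07 ± 0.10 in back (edgeR adjusted p = 2.58e-07).

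Pkm (ENSMUSG00000032294.18) encodes pyruvate kinase of muscle, in splice forms M1 and M2 that gene counts do not separate. It had 4698, 4691 and 4640 CPM in back WT and 5797, 2648 and 2830 in back ST. In leg it had 3163.5, 3093 and 2795 in WT and 2147, 1771 and 1760 in ST. Back ST column 1 was above all back WT columns, as for Pfkm, and the other back ST columns lay near the lowest leg WT column. Between muscles Pkm fell by 0.99 in ST columns (standard error 0.23, edgeR adjusted p = 0.0145), and by 0.53 without back ST column 1 (adjusted p = 0.00282). ST over WT was -0.32 ± 0.23 in back (edgeR adjusted p = 0.442), or -0.77 ± 0.11 without column 1 (adjusted p = 2.62e-05). In leg it was -0.67 ± 0.23 (edgeR adjusted p = 0.209).

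Ldha (ENSMUSG00000063229.16) encodes the lactate dehydrogenase subunit that favours lactate production and is a known target of hypoxia-inducible factor. Its rat promoter is shown because Ldha had the largest ST difference in back of the 8 genes with all columns. The 250 bases end at the start site (RefSeq, GRCr8, chr1:106507842-106508091, plus strand), and capitals mark ACGTG, part of the motif that this factor binds, on either strand.
Ldha: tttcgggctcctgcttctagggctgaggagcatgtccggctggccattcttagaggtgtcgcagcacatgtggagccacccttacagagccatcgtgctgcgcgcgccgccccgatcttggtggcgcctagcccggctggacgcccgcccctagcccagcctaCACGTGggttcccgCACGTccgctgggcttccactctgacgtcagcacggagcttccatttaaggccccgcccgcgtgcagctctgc

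The Ldha window held 3 matches to ACGTG, of which 2 overlap on opposite strands, and 16.6% of all promoter windows held at least 1. Matches also occurred in windows of Pygm, Pfkm and Aldoa, so in 4 of 8 genes and in 4 of their 10 windows. The promoter letters are not a measure of the factor's activity, which these data do not measure.

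CPM of Ldha was 982, 1030 and 1012 in back WT and 969, 449 and 414 in back ST. It was 639, 664 and 659 in leg WT and 422, 388 and 418 in leg ST. Back ST columns 2 and 3 lay in or next to the range of leg ST, and column 1 lay just below back WT. ST over WT was -0.72 ± 0.23 in back (edgeR adjusted p = 0.0840) and -0.68 ± 0.23 in leg (adjusted p = 0.212). The fit without back ST column 1 gave -1.23 ± 0.10 in back (edgeR adjusted p = 2.47e-08) and -0.67 ± 0.08 in leg (adjusted p = 1.10e-04). Leg over back in ST columns was -0.58 ± 0.23 (edgeR adjusted p = 0.141), and -0.07 ± 0.09 without that column (adjusted p = 0.708).

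Ckm (ENSMUSG00000030399.3) encodes muscle creatine kinase, which regenerates ATP from phosphocreatine and is not itself a glycolytic enzyme. It had 19764, 21124 and 22256 CPM in back WT and 20259, 12674 and 14349 in back ST. In leg it had 16659, 13294 and 15139 in WT and 10878, 10410 and 9961 in ST. Leg WT was more spread than back WT, with an SD of 11.2% against 5.93% of the mean, and no leg ST column reached it. Between muscles Ckm fell by 0.60 in ST columns (standard error 0.17, edgeR adjusted p = 0.0392), and by 0.38 without back ST column 1 (adjusted p = 0.0288). ST over WT was -0.42 ± 0.17 in back and -0.53 ± 0.17 in leg, with edgeR adjusted p = 0.152 and 0.193. In back it was -0.64 ± 0.11 without column 1 of back ST (edgeR adjusted p = 1.98e-04).

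Whether the ST against WT difference itself differed between leg and back was tested as an interaction. With edgeR on all 12 columns 0 of 8 genes passed, the smallest adjusted p being 0.559, for Pfkm, and 0% of all genes were called. At an unadjusted p below 0.05 there were 0 of the 8 and 1073 genes in all (10.3%), and DESeq2 called 0 of the 8 and 0.565% of all genes. The interaction of Pfkm was -0.40, with a 95% interval of -0.87 to 0.06, and that of Ldha was 0.05, with an interval of -0.64 to 0.73. Both intervals include 0. Without back ST column 1 Ldha passed, at 0.55 ± 0.12 (edgeR adjusted p = 0.00913), meaning a smaller ST decrease in leg than in back, and 6.16% of all genes were called. In that fit the estimate changed sign for Pygm, Aldoa, Pgam2, Eno3, Pkm and Ckm, which were above 0 but did not pass.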

How the data were processed

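Total RNA of rat muscle was purified with a commercial kit and read from both ends by a sequencing service, per the labels' protocols. The submitters' processing notes name STAR and DESeq2, and the sources used here give no version, genome build or annotation. The deposited values are raw counts per gene, below 4 rows of read classes that name no gene, which were left out of library sizes. All 12 columns were used (0 left out), mapped to a muscle by their names and to no single sample.

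Genes were filtered with edgeR's filterByExpr (minimum count 10, minimum total 15), scaled by TMM and fitted with edgeR 4.0.16 (glmQLFit, R 4.3.3), 1 term per muscle and code. Tests were two-sided with Benjamini-Hochberg adjustment over 10450 genes. Standard errors were derived from the F statistics. Calls were checked on simulated data. Over the 4 comparisons of columns, 13.4% to 29.9% of genes changed 1.5-fold were recovered, and 65.7% to 74.6% of those changed 2-fold. False calls numbered 3 to 11 in a comparison. A gene that was not called may therefore still differ by about this much. DESeq2 1.42.0 was an alternative, beside other scalings, filters and left-out columns. All pairs of columns differed by more than sampling noise (chi-square per gene of at least 2.07, where noise alone gives about 1), so none was counted as a duplicate.

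The 8 genes, all of them named, and the lists were chosen with earlier results of these data known. The planned exact test of their summed share was left out, as members chosen in this way support none. Other pathway genes and cell type markers were listed by symbol. No table used here pairs these identifiers with symbols, so they were not analysed here. Gene symbols of the 8 come with the rule that chose them.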

Additional observations from a re-analysis of the deposited data

How the results depend on the processing

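Of the fold changes of single genes, 138 of 152 in back ST against WT, 122 of 152 in leg ST against WT, 116 of 152 and 118 of 152 in leg against back (WT and ST columns) and 135 of 144 interactions kept their direction and side of the threshold over the alternatives. In both ST against WT comparisons and the interaction 0 of 8 genes had passed with all columns, so keeping the side there meant staying uncalled. Most alternatives left out a single column and so shared nearly all the data. No alternative turned a direction that had passed the test. Pfkm turned to 0.112 (back ST over WT) and 0.0377 (leg over back, WT) without composition scaling, and to 0.0342 and 0.0249 in back without back ST column 2 or 3 (range over left-out columns -0.265 to 0.0342). Leaving out columns, the interactions ranged from -0.287 to 0.246 (Pygm), -0.330 to 0.0999 (Aldoa), -0.538 to 0.420 (Pgam2), -0.327 to 0.335 (Eno3), -0.563 to 0.0996 (Pkm), -0.255 to 0.111 (Ckm) and -0.171 to 0.550 (Ldha). The highest of these came without back ST column 1, and Ldha was also below 0, at -0.139, without back ST column 2. The cause was not tested.

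Leaving out each of the 12 columns gave these ranges, with the counts for all columns first. Back ST against WT: 250 genes higher (18 to 1171), 145 lower (9 to 1165), 0 of 8 enzyme genes called (0 to 7). Leg ST against WT: 5 higher (2 to 189), 3 lower (0 to 306), enzyme genes 0 (0 to 8). Leg against back in WT: 778 higher (436 to 1138), 672 lower (220 to 1130), enzyme genes 1 (0 to 7). In ST: 486 higher (193 to 745), 374 lower (109 to 583), enzyme genes 5 (0 to 8). Interaction: 0 higher (0 to 288), 0 lower (0 to 374), enzyme genes 0 (0 to 1). Leaving out any of the other 5 back columns gave 18 to 61 genes higher and 9 to 26 lower in back ST against WT. The highest values came without back ST column 1, except for leg against back in ST, where they came without back ST column 2.

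Without composition scaling the counts were 673 higher (back), 19 higher (leg), 1405 higher and 244 lower (leg over back, WT), and 1024 higher, 133 lower and 3 enzyme genes (ST). In the ST comparison 11.1% of all genes were then called, and the calls of Pfkm and Ckm were lost. With no filter beyond a count above 0 the counts were 693 higher, 480 lower and 3 enzyme genes (back), and 219, 284 and 7 (leg). They were 6 enzyme genes (leg over back, WT), 799, 601 and 8 (ST), and 64 higher and 216 lower (interaction). Of the 20341 genes then tested, 5.77% were called in back and 2.47% in leg. Between the muscles 9.17% were called among WT columns and 6.88% among ST columns. DESeq2 gave 264 lower and 1 enzyme gene (back), 8 higher, 74 lower and 7 enzyme genes (leg), 4 enzyme genes (leg over back, WT), and 10 higher and 49 lower (interaction). Its share of all genes called was 5.82% in back, 0.785% in leg and 12.5% in leg over back among WT columns. Fitting the 6 columns compared gave 2 higher and 0 lower (back), 275 higher, 419 lower and 8 enzyme genes (leg), 1083 lower and 7 enzyme genes (leg over back, WT), and 158 higher, 66 lower and 0 enzyme genes (ST). Of the genes tested in these fits, 7.08% were called in leg. Between the muscles it was 22.4% among WT columns and 2.29% among ST columns. Without the most abundant gene in the denominator the enzyme genes held 9.14% (back WT), 5.71% (leg ST) and 7.43% (leg WT).

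Columns share a number without a stated link. Correlations of same-numbered columns' deviations ran from -0.0987 to 0.0478 between ST and WT within a muscle and from -0.0723 to 0.175 between muscles. Of 12 columns, 3 and 4 correlated best with their own number. With a replicate block on the number, 4 enzyme genes and 12.8% of all genes were called in leg against back among WT columns, and the other counts stayed within 1.5 times. The enzyme genes had at least 1593 counts in every column.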
